A study of Mus musculus with 21 samples.

Results

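After 10 Gy of irradiation, the CD24hi and CD24lo fractions of Mist1+ cells from the mouse small intestine were compared across the whole transcriptome, on 4 arrays of the 21 in the series. The 4 arrays were those labelled as irradiated, with 2 arrays of the CD24hi and 2 of the CD24lo fraction by their labels. In CD24hi cells the crypt base stem cell genes Lgr5 and Smoc2, the Paneth cell genes Wnt3 and Habp2, the tuft cell gene Dclk1 and several pancreatic enzyme genes were higher. Most of these pancreatic genes were tested only through arrays where they are high. In CD24lo cells the absorptive enterocyte genes, the genes that handle foreign compounds, and the interferon-stimulated genes, led by Ido1, were higher. Bhlha15, the gene of Mist1, was 6.24-fold higher in CD24hi cells.

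Mist1 is the protein of Bhlha15, a helix-loop-helix transcription factor that in many exocrine cells scales up the secretory apparatus. CD24 is a small glycosylated surface protein that is abundant on the cells at the base of intestinal crypts, among them Paneth cells, and it is widely used to part crypt cells by flow cytometry. At the crypt base, stem cells marked by Lgr5 lie between Paneth cells, which make antimicrobial proteins and growth signals, while absorptive enterocytes, goblet, enteroendocrine and tuft cells are the differentiated cells above them. High doses of ionizing radiation break DNA and kill many dividing crypt cells, after which the crypt is rebuilt by surviving cells.

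The labels describe small intestine from mice in which TdTomato, a red fluorescent protein, marked the sorted cells and their CD24 level set the gate. The groups used here were Mist1+CD24lo and Mist1+CD24hi cells after 10Gy, the same fractions from untreated controls, and the same fractions after doxorubicin, an anthracycline that damages DNA by trapping topoisomerase II. All of these groups share the TdTomato mark. The 4 arrays of Lgr5-ablated and the 4 of NICD-expressing cells entered the fit only as further measures of the spread between arrays. The labels used here give neither the reporter and driver alleles, nor the strain or age of the mice, nor the time between irradiation and sorting, nor whether a replicate was 1 mouse or several. The p-values therefore measure the spread between these samples, which may be technical.

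Each array was made from 0.8 ng of total RNA, and values are MAS5 signals scaled by the authors so that the trimmed mean of an array is 500. The median signal of the irradiated arrays lay between 133 and 143, and their 3'/5' ratio of actin, a sign of RNA integrity, between 1.32 and 1.46. Replicates correlated at 0.976 in the CD24lo and 0.968 in the CD24hi fraction over genes, which are not independent replicates. On the first principal component of the sorted arrays both CD24lo arrays after irradiation were negative (-37.5 and -32.0) and both CD24hi arrays positive (39.9 and 31.2). One array outside the comparison, NICD CD24hi replicate 2, stood apart by its actin ratio of 1.03.

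Of 11854 genes tested, 1868 differed between the fractions after irradiation at an adjusted p under 0.05, which is 15.8% of them. In CD24hi cells 893 genes (7.53%) were higher and 975 (8.23%) lower. The difference was at least 2-fold for 1201 and at least 4-fold for 370 of these genes, and the median over all genes tested was 0.04 on the log2 scale. The signals of the CD24hi and CD24lo arrays did not overlap for any of the 1868 genes, a property that 7053 of all genes tested share. Differences are given throughout as CD24hi minus CD24lo of log2(signal + 16) with their standard error, from limma with 2 arrays a fraction, so a negative value means a lower level in CD24hi cells. The number of genes fell to 802 without CD24lo replicate 1, 1184 without CD24lo replicate 2, 768 without CD24hi replicate 1 and 1338 without CD24hi replicate 2.

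The genes of Mist1 and of the gated protein were read first. Bhlha15 had signals of 448 and 665 in CD24lo cells and 4707 and 2583 in CD24hi cells, a difference of 2.64 ± 0.26 (adjusted p = 6.63e-06). Both CD24hi arrays lay well above both CD24lo arrays. Cd24a, the gene of the gated protein, had signals of 11998 and 11123 in CD24lo cells against 19617 and 19088 in CD24hi cells. Its transcript was high in both fractions, and the difference of 0.74 ± 0.18 (adjusted p = 0.00872) corresponds to 1.67-fold. That call was lost without CD24lo replicate 2 (adjusted p = 0.0595) and without CD24hi replicate 1 (0.0713).

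**Figure D1:**
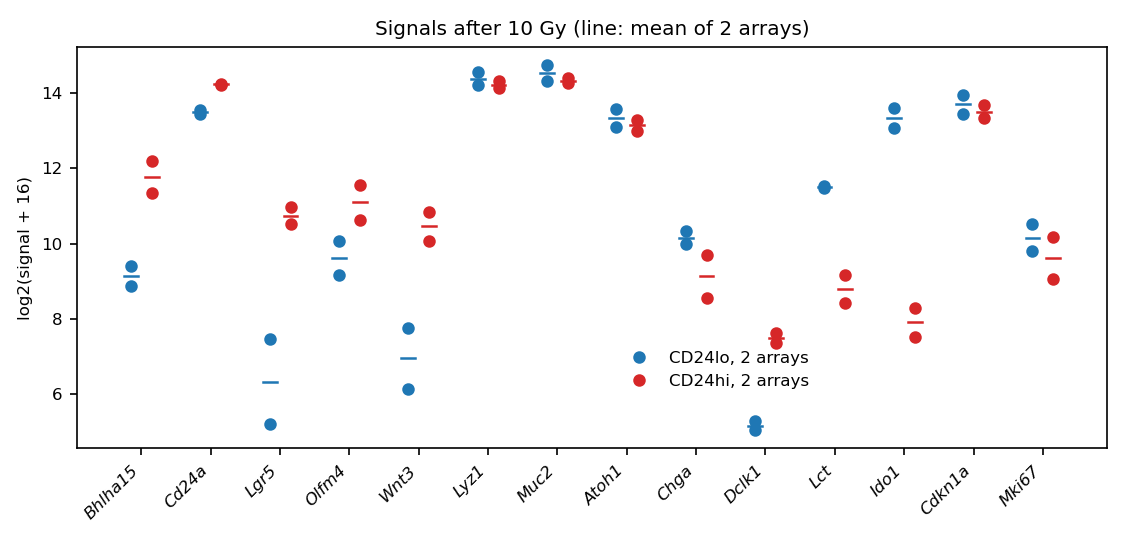
Level of 14 genes on the 4 irradiated arrays as log2(signal + 16), with 1 point per array and a line at the mean of each fraction. Lgr5, Wnt3, Dclk1 and Bhlha15 are higher on both CD24hi arrays, Lct and Ido1 are higher on both CD24lo arrays, and the points of Muc2, Lyz1, Atoh1, Mki67 and Cdkn1a overlap between the fractions.

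Genes that name the main secretory lineages did not all follow the gate. Atoh1, the transcription factor that commits crypt cells to secretory fates, had signals of 12363 and 8821 in CD24lo and 10025 and 8181 in CD24hi cells (-0.21 ± 0.20, adjusted p = 0.573). Lyz1, the lysozyme of Paneth cells, had 24140 and 18931 against 17930 and 20552 (-0.16 ± 0.28, 0.782), and Muc2, the gel-forming mucin of goblet cells, 27493 and 20416 against 19926 and 21548 (-0.19 ± 0.26, 0.692). For these 3 genes the arrays of the fractions overlapped, and their signals were near the top of the scale in both. Chga, chromogranin A of enteroendocrine granules, had 994 and 1264 against 361 and 818 and did not pass (-1.02 ± 0.65, 0.334).

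The genes were also read in 32 lists with a common role, each described by its counts. Each count is to be read beside the shares over all genes tested, 7.53% higher and 8.23% lower. A count near these shares does not set a list apart. A member can pass the filter on low signals only through the arrays where it is high, so counts and medians over the tested members are descriptions of a list and not support for it. In bulk samples such as these, fewer cells of a type and less RNA per cell cannot be told apart.

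**Figure D2:**
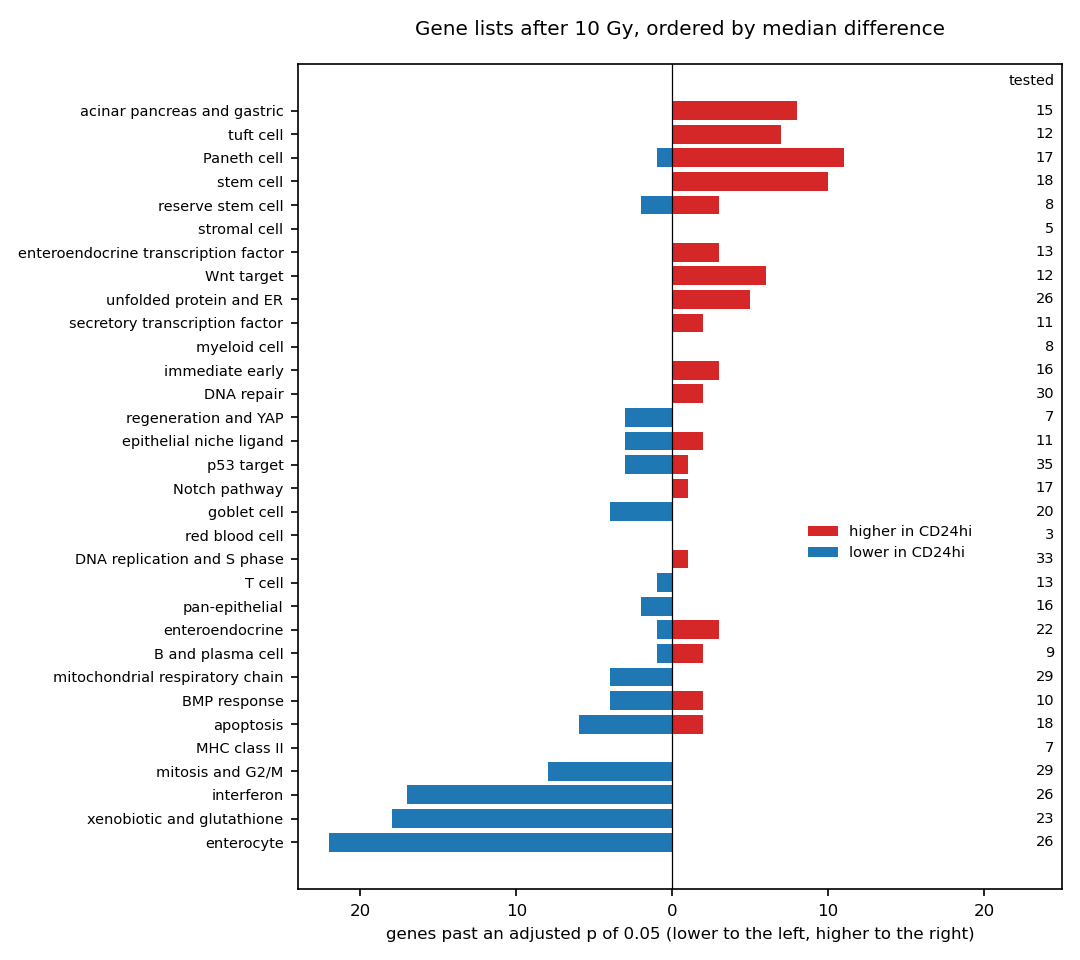
Number of genes higher (red, to the right) and lower (blue, to the left) in CD24hi cells after irradiation at an adjusted p under 0.05, for 32 gene lists ordered by their median difference, with the number tested at the right edge. Stem cell, Paneth, tuft and pancreatic genes extend mainly to the right, and enterocyte, xenobiotic and interferon genes only to the left.

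The stem cell list held the genes of Lgr5+ crypt base cells. Of its 18 members, all of which were tested, 10 were higher in CD24hi cells and none was lower, with a median difference of 1.04 against 0.04 over all genes. Lgr5, the R-spondin receptor that marks these cells, had signals of 20.4 and 158 in CD24lo cells and 1981 and 1449 in CD24hi cells. Both CD24lo arrays were low, replicate 2 well above replicate 1, and the difference of 4.42 ± 0.56 (adjusted p = 5.18e-05) was the largest of the list. Smoc2, a matricellular protein of the crypt base, had 384 and 570 against 2854 and 2427 (2.45 ± 0.22, adjusted p = 2.17e-06). Rgmb, a co-receptor for bone morphogenetic proteins, had 331 and 601 against 2768 and 2711 (2.57 ± 0.27, 1.14e-05). The transcription factor Sox9 had 356 and 503 against 2524 and 2001 (2.37 ± 0.37, 0.000378). In each of these genes both CD24hi arrays lay above both CD24lo arrays.

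Znrf3 and Rnf43, membrane ubiquitin ligases that remove Frizzled receptors and so damp Wnt signalling, were higher by 1.67 ± 0.23 and 1.50 ± 0.21. A second, dimmer probe set of Znrf3 gave 0.34 and did not pass (adjusted p = 0.346 in a limma fit over probe sets). Olfm4, a secreted glycoprotein abundant in crypt base stem cells, had 558 and 1061 in CD24lo and 1576 and 3022 in CD24hi cells (1.48 ± 0.31, adjusted p = 0.00315). The Olfm4 call was lost without CD24lo replicate 1 (adjusted p = 0.0784) and without CD24hi replicate 2 (0.058). The water channel gene Aqp4 was the only member with a negative difference (-0.57 ± 0.27, 0.172), and its arrays overlapped. With 1 irradiated array left out, 7 to 9 members of the list passed.

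Among 8 tested genes proposed to mark reserve stem cells, of 9 listed, 3 were higher and 2 lower in CD24hi cells (median 0.68). Msi1, an RNA-binding protein, had signals of 169 and 361 against 1109 and 1520 (2.32 ± 0.37, adjusted p = 0.000394), and Lrig1, a membrane protein that restrains EGF receptor signalling, 1064 and 1341 against 4227 and 3058 (1.58 ± 0.23, 0.000155). Both genes passed whichever 1 array was left out. The homeobox gene Prox1 (1.04 ± 0.34, 0.047), the telomerase gene Tert (-0.95 ± 0.31, 0.0431) and the keratin gene Krt19 (-0.94 ± 0.29, 0.0382) each lost the call when any of 3 or more single arrays was left out. Without CD24lo replicate 1, CD24lo replicate 2 or CD24hi replicate 1, no member of the list was lower.

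Of 16 Wnt target genes, 12 were tested and 6 were higher, with none lower and a median of 0.56. Ephb3, a receptor tyrosine kinase for ephrins that positions cells along the crypt, had 79.0 and 238 against 1525 and 2134 (3.55 ± 0.43, adjusted p = 3.25e-05). Nkd1, an intracellular antagonist of Wnt signalling, had 152 and 171 against 735 and 503 (1.82 ± 0.27, 0.000224). Neither gene showed any overlap between fractions, and both passed whichever 1 array was left out. Tcf4 was higher by 1.19 ± 0.22 (0.00166), but in the mouse this symbol denotes an E protein of the helix-loop-helix class and not the Wnt effector Tcf7l2. The secreted or membrane-bound Wnt inhibitors Notum (2.11 ± 0.56, 0.0157) and Apcdd1 (2.20 ± 0.53, 0.00929) and the R-spondin receptor gene Lgr4 (0.87 ± 0.24, 0.0207) were higher too. Each of these 3 lost the call without CD24lo replicate 1 (adjusted p of 0.19, 0.175 and 0.166) and without CD24hi replicate 1 (0.198, 0.107 and 0.175), and 3 members passed without the one or the other.

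Paneth cell genes were mostly higher in CD24hi cells. Of 24 listed, 17 were tested, 11 were higher and 1 was lower, with a median of 1.07. Copz2, a coat protein subunit of Golgi vesicles, had signals of 83.6 and 109 in CD24lo and 1196 and 1072 in CD24hi cells (3.36 ± 0.25, adjusted p = 5.63e-07). Habp2, a plasma-type serine protease, had 334 and 558 against 4581 and 5097 (3.44 ± 0.34, 6.47e-06). Pla2g2a, a secreted phospholipase that attacks bacterial membranes, had 444 and 1419 against 7975 and 9281 (3.41 ± 0.42, 4.07e-05). In all of them CD24lo replicate 2 was above CD24lo replicate 1, yet well below either CD24hi array.

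Pnliprp2, a lipase, had 1271 and 2635 against 16148 and 16424 (3.14 ± 0.35, 1.91e-05). Mmp7, the protease that activates defensins in the mouse, had 10027 and 9404 against 20454 and 20012 (1.06 ± 0.25, 0.00862). The member that went the other way was Reg3a, an antimicrobial lectin, at 652 and 1308 in CD24lo against 102 and 207 in CD24hi cells (-2.53 ± 0.47, 0.00146). With 1 array left out, 8 to 10 members were higher. Lyz1, at similar signals in both fractions, belongs to the same list.

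The ligands by which epithelial cells shape the niche were split. Of 14 listed, 11 were tested, 2 were higher and 3 lower, with a median of 0.02. Wnt3, the Wnt ligand that Paneth cells supply to stem cells, had signals of 54.2 and 199 in CD24lo and 1831 and 1050 in CD24hi cells (3.51 ± 0.53, adjusted p = 0.000263). Egf, the founding ligand of the EGF receptor, had 265 and 235 against 1114 and 805 (1.86 ± 0.24, 5.54e-05). Both were higher on both CD24hi arrays, and both calls held whichever 1 array was left out. Each was read from a single probe set of the x or a type, so that 0 ligands were higher when probe sets of the x, s and a types were left out.

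Other ligands of the same receptor were lower in CD24hi cells. Hbegf, a heparin-binding member of the family, had 3971 and 3068 in CD24lo cells and 909 and 1146 in CD24hi cells (-1.76 ± 0.29, 0.000576). Btc, betacellulin, had 2209 and 1912 against 682 and 763 (-1.49 ± 0.19, 4.03e-05). Tgfa was lower by a smaller margin (-0.96 ± 0.28, 0.0277), and that call was lost without CD24lo replicate 1 (0.356) or CD24hi replicate 2 (0.212). Without CD24lo replicate 1, 2 ligands were lower.

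Tuft cells are chemosensory cells whose genes had low signals on these arrays. Of 18 listed genes 12 were tested, 7 were higher in CD24hi cells and none was lower, with a median of 1.16. The 7 include Cd24a, whose direction the sort set. Dclk1, the kinase gene used to mark the cells, had signals of 22.7 and 16.8 in CD24lo and 146 and 180 in CD24hi cells (2.33 ± 0.45, adjusted p = 0.00187), and it passed whichever 1 array was left out. Both CD24hi arrays were slightly above the median signal of an array and both CD24lo arrays far below it. On untreated and doxorubicin arrays too, Dclk1 was above the median only in CD24hi cells. Within these groups it passed the filter on low signals only through arrays where it is high. Trpm5, the cation channel of the taste pathway, had 35.1 and 28.1 against 183 and 148 (1.93 ± 0.50, 0.0145). Sh2d6, an adaptor protein, had 7.57 and 9.96 against 35.8 and 227 (2.18 ± 0.51, 0.00793). The replicates of Sh2d6 in CD24hi cells differed widely.

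The calls of Sh2d6, Trpm5, of the leukotriene pathway gene Alox5ap (2.07 ± 0.59, 0.0231), of the G protein regulator Rgs13 (1.91 ± 0.49, 0.0141) and of the actin-binding Avil (1.05 ± 0.33, 0.039) were each lost when some single array was left out. The list then counted 3 genes without CD24lo replicate 1, 4 without CD24lo replicate 2, 2 without CD24hi replicate 1 and 4 without CD24hi replicate 2.

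Hormone genes of enteroendocrine cells did not move as a block. Of 24 listed, 22 were tested, 3 were higher and 1 lower in CD24hi cells (median -0.34). The shares over all genes were 7.53% higher and 8.23% lower. Iapp, the gene of amylin, had signals of 71.2 and 199 in CD24lo and 1215 and 758 in CD24hi cells (2.83 ± 0.41, adjusted p = 0.000159). Sst, somatostatin, had 123 and 191 against 1087 and 778 (2.46 ± 0.53, 0.00416), and Gip, the glucose-dependent insulinotropic hormone, 3159 and 1785 against 6295 and 5974 (1.36 ± 0.40, 0.0293). Nts, neurotensin, went the other way, with 755 and 864 in CD24lo against 45.8 and 33.3 in CD24hi cells (-3.90 ± 0.47, 3.3e-05).

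The Iapp and Nts calls held whichever 1 array was left out. Sst was lost without CD24lo replicate 1 (0.0598) or CD24hi replicate 1 (0.0579), and Gip without CD24lo replicate 2 (0.238), CD24hi replicate 1 (0.148) or CD24hi replicate 2 (0.0957). With CD24hi replicate 1 left out, 1 hormone gene was higher, and without CD24lo replicate 1, 2 were lower.

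Transcription factors of the endocrine lineage numbered 13 tested of 18, with 3 higher, none lower and a median of 0.61. Nkx2-2, a homeodomain factor needed for several hormone-producing cell types, had 73.5 and 158 against 720 and 710 (2.55 ± 0.40, 0.000377). Isl1, a LIM homeodomain factor, had 89.1 and 110 against 394 and 378 (1.80 ± 0.47, 0.0146), and Hhex, a homeobox gene of somatostatin cells in the mouse pancreas, 29.0 and 4.91 against 109 and 84.2 (1.87 ± 0.46, 0.0113). The groups did not overlap in any of them. Isl1 was lost without CD24lo replicate 1 (0.112), CD24hi replicate 1 (0.0945) or CD24hi replicate 2 (0.0594), and Hhex without CD24lo replicate 2 (0.132) or CD24hi replicate 1 (0.101), so that 1 factor passed without CD24hi replicate 1 and 2 without each of the others.

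In the list of 11 secretory transcription factors, Bhlha15 and Sox9 were higher and none was lower (median 0.35), while Klf4, a factor of goblet cell maturation, had overlapping arrays (-0.26 ± 0.21, adjusted p = 0.473). In the list of 17 tested Notch pathway genes of 22, only Heyl passed. Heyl, a Hairy-related repressor downstream of Notch, had 45.8 and 56.2 against 593 and 454, which is 8.01-fold (SE 0.43 on the log2 scale, adjusted p = 0.00017). Rbpj, the DNA-binding partner of the Notch receptors, did not pass (0.64 ± 0.27, 0.128).

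Genes of endoplasmic reticulum stress and the unfolded protein response leaned towards CD24hi cells. All 26 listed were tested, 24 had a positive difference, 5 were higher and none lower, with a median of 0.47. Over all genes tested, 6358 of 11854 had a positive difference. The count was 10 with the probe sets of a gene averaged and 9 with only the irradiated arrays in the fit. Asns, asparagine synthetase, had signals of 3740 and 3892 in CD24lo and 8721 and 6943 in CD24hi cells (1.03 ± 0.18, adjusted p = 0.001). Ern1, the stress sensor IRE1, had 1370 and 1288 against 2655 and 2542 (0.96 ± 0.17, 0.000979). The groups did not overlap, and both calls held whichever 1 array was left out.

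Pdia4, a disulfide isomerase (0.84 ± 0.22, 0.0144), the co-chaperone Dnajc3 (0.83 ± 0.20, 0.0082) and Herpud1, which serves degradation of misfolded proteins (0.62 ± 0.15, 0.0116), were higher as well. Pdia4 was lost without CD24lo replicate 1 (0.19), Dnajc3 and Herpud1 without CD24lo replicate 2 (0.0845 and 0.114), and all of them without CD24hi replicate 1 (0.112, 0.068 and 0.11), which left 3 members without CD24lo replicate 2 and 2 without CD24hi replicate 1. Eif2ak3, the sensor PERK, had overlapping arrays (-0.22 ± 0.23, 0.607).

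Of 16 immediate early genes, transcribed within minutes of a stimulus, 3 were higher and none lower (median 0.18). Nr4a1, an orphan nuclear receptor, had 636 and 369 in CD24lo and 2904 and 2081 in CD24hi cells (2.30 ± 0.37, adjusted p = 0.000435). The zinc finger factor Egr2 had 1114 and 908 against 2314 and 2183 (1.15 ± 0.27, 0.00838), and Jun 3957 and 3632 against 5810 and 5429 (0.57 ± 0.17, 0.0314). Nr4a1 passed whichever 1 array was left out. Egr2 was lost without CD24lo replicate 2 (0.0739) or CD24hi replicate 1 (0.0707), and Jun with any of the arrays left out, which left 1 gene without either of the former arrays and 2 without either of the others.

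Genes of the exocrine pancreas and stomach formed a further group that was higher in CD24hi cells. Of 22 listed 15 were tested, 8 were higher and none lower. Cpa1, Cela2a, Prss2 and Cel were above the median of an array only in irradiated CD24hi and doxorubicin CD24lo cells, so they passed the filter on low signals only through arrays where they are high, and with a stricter filter 2 members were higher. Cpb1, carboxypeptidase B, is no member of the list but one of the largest differences over all genes. It had signals of 20.2 and 4.27 in CD24lo and 739 and 310 in CD24hi cells (4.19 ± 0.64, adjusted p = 0.000263). Cpb1 too was above the median of an array only in irradiated CD24hi and doxorubicin CD24lo cells, and so was tested only through arrays where it is high. Cela2a, an elastase, had 9.38 and 22.0 against 494 and 201 (3.42 ± 0.66, 0.00187), and Cel, the bile salt-dependent lipase, 26.5 and 9.64 against 504 and 140 (3.11 ± 0.66, 0.00381). In all of them CD24hi replicate 1 was above CD24hi replicate 2, and both CD24lo arrays were far below the median signal of an array.

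The protease genes Prss2 (2.73 ± 0.68, 0.0113), Cpa1 (2.46 ± 0.64, 0.0144) and Ctrb1 (2.39 ± 0.67, 0.0226) and the gastric intrinsic factor gene Cblif (2.09 ± 0.57, 0.019) were also higher. Cela2a kept its call whichever 1 array was left out, as did Cpb1 outside the list, but both were tested only through arrays where they are high. Without CD24hi replicate 1 the adjusted p of Cel was 0.0965, of Prss2 0.145, of Cpa1 0.202, of Ctrb1 0.193 and of Cblif 0.17. In that fit 2 genes of the list were higher, against 4 without CD24lo replicate 1, 5 without CD24lo replicate 2 and 8 without CD24hi replicate 2. The gastric genes Tff1 (-0.40 ± 0.28, 0.387) and Atp4a (-0.30 ± 0.44, 0.723) did not pass. Another gastric gene, Pgc, had signals of 57.5 and 41.7 in CD24lo against 201 and 338 in CD24hi cells, without overlap. Of the members given here with a call, all but Cblif encode pancreatic enzymes. Not all of the 8 higher members are named, and for the gastric gene Pgc no adjusted p is given here.

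Pancreatic transcripts were not limited to irradiated CD24hi cells. Over the other 18 sorted arrays the median signal of Cpa1 was 7.65 and the highest 224, on doxorubicin CD24lo replicate 1. The same array had the highest of the other signals for Cela2a (375), Cel (263), Ctrb1 (814), Prss2 (355), Cpb1 (502) and 2210010C04Rik (579), a gene that the tables used here give without a role. Of these genes, Cpa1 and Prss2 were higher on that array than on either irradiated CD24hi array. Like Cpb1, 2210010C04Rik passed the filter only through irradiated CD24hi and doxorubicin CD24lo arrays where it is high. The summed signal of the 15 tested list members was 1032 and 1095 in irradiated CD24lo and 4359 and 2442 in irradiated CD24hi cells. The part of pancreatic cells or their RNA in these libraries was not tested.

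**Figure D3:**
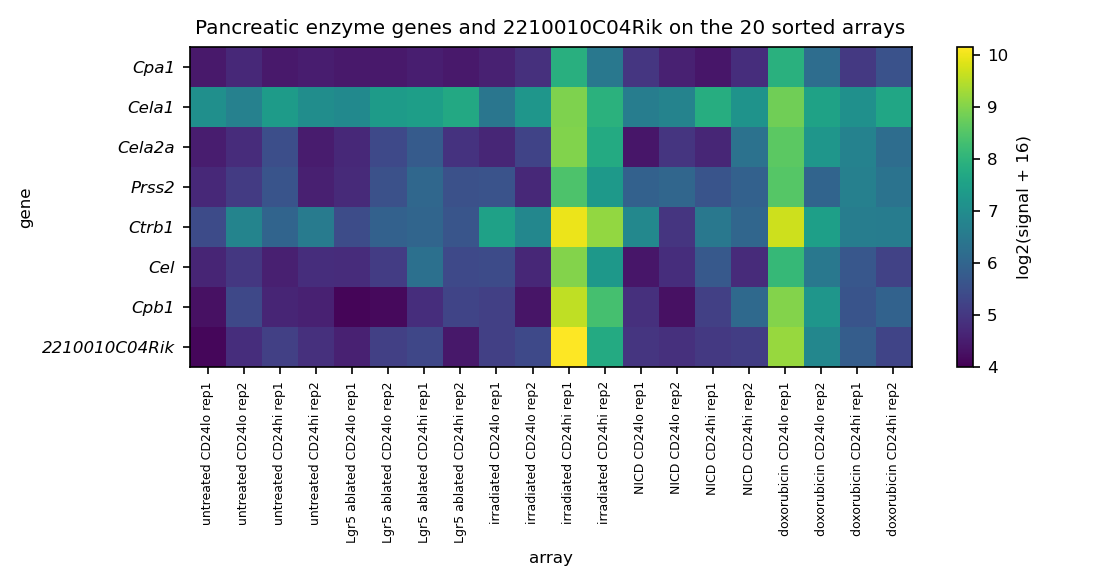
Heat map of log2(signal + 16) of 8 genes (7 pancreatic enzyme genes and 2210010C04Rik, chosen after their values were seen) on the 20 sorted arrays, with genes in rows and arrays in columns. The brightest columns are both irradiated CD24hi arrays and doxorubicin CD24lo replicate 1.

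Enterocyte genes were lower in CD24hi cells almost throughout. Of 28 listed 26 were tested, 22 were lower and none higher, with a median of -2.19. Lct, lactase, had signals of 2968 and 2857 in CD24lo and 325 and 558 in CD24hi cells (-2.73 ± 0.48, adjusted p = 0.000979). Enpep, aminopeptidase A of the brush border, had 4361 and 5480 against 373 and 842 (-3.09 ± 0.54, 0.000949). Rbp2, the retinol-binding protein of enterocytes, had 4757 and 5467 against 540 and 997 (-2.77 ± 0.48, 0.000895). CD24hi replicate 2 was above CD24hi replicate 1 for each of these genes, and both were far below the CD24lo arrays.

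Apoc3, an apolipoprotein of triglyceride-rich particles, had 1204 and 1244 against 166 and 169 (-2.75 ± 0.54, 0.00209). Cyp3a11, a cytochrome P450 that oxidizes drugs, had 2424 and 4818 against 327 and 642 (-2.85 ± 0.45, 0.000382). Alpi, intestinal alkaline phosphatase, had 7719 and 8100 against 690 and 1469 (-2.95 ± 0.75, 0.0125), and its call was lost without CD24lo replicate 1 (0.0756), CD24lo replicate 2 (0.0629) or CD24hi replicate 1 (0.14). Slc2a5, the fructose transporter GLUT5, was the only tested member with a positive difference (0.24 ± 0.49, 0.808).

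The summed signal of the enterocyte genes tested was 129663 and 129366 in CD24lo against 34220 and 51435 in CD24hi cells. Without CD24hi replicate 1 the number of lower members was 13, and it was 16, 15 and 20 without CD24lo replicate 1, CD24lo replicate 2 and CD24hi replicate 2.

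Enzymes that modify and clear foreign compounds went the same way. Of 26 listed 23 were tested, 18 were lower in CD24hi cells and none higher, with a median of -1.99. Gsta4, a glutathione transferase for products of lipid peroxidation, had 16872 and 12562 in CD24lo and 984 and 1714 in CD24hi cells (-3.47 ± 0.40, adjusted p = 2.33e-05). Sult1b1, a sulfotransferase, had 4005 and 4208 against 417 and 1013 (-2.63 ± 0.47, 0.00116). Both genes passed whichever 1 array was left out, and in both CD24hi replicate 2 was the higher of its pair.

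The carboxylesterase gene Ces2a (-2.84 ± 0.60, 0.00394), the transferase genes Gstm3 (-2.81 ± 0.62, 0.00534) and Ugt2b5 (-2.75 ± 0.74, 0.018) and the retinal dehydrogenase gene Aldh1a1 (-2.60 ± 0.73, 0.0226) were lower too, but each was lost without CD24lo replicate 2 (0.0652, 0.0665, 0.128 and 0.13) and without CD24hi replicate 1 (0.098, 0.119, 0.181 and 0.266). The list then counted 7 and 8 genes. Gclc, which limits the synthesis of glutathione, had 1832 and 2069 against 1852 and 2102 (0.02 ± 0.17, 0.965).

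Interferon-stimulated genes were lower in CD24hi cells as a group. Interferons act through STAT and IRF factors that bind to short elements near the start of many antiviral genes. Of 30 listed 26 were tested, 17 were lower and none higher, with a median of -1.47. Ido1, the tryptophan-degrading enzyme indoleamine dioxygenase, had signals of 12502 and 8557 in CD24lo and 168 and 294 in CD24hi cells. Its difference of -5.44 ± 0.43 (adjusted p = 7.19e-07) was the most negative of all genes tested, 43.4-fold higher in CD24lo cells.

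Ifit1, which binds foreign RNA caps, had 2771 and 735 in CD24lo against 168 and 89.8 in CD24hi cells (-3.37 ± 0.45, 8.47e-05). Rsad2, viperin, had 1861 and 589 against 141 and 141 (-2.76 ± 0.37, 9.56e-05). Mx1, a dynamin-like antiviral GTPase, had 752 and 350 against 88.4 and 62.0 (-2.55 ± 0.33, 6.21e-05). In all of these, CD24lo replicate 1 was more than 2-fold above CD24lo replicate 2, and both were above the CD24hi arrays.

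Oas2, an oligoadenylate synthetase, had 1651 and 719 against 46.5 and 154 (-3.42 ± 0.59, 0.000841). Ifit3 had 303 and 127 against 12.5 and 15.1 (-2.85 ± 0.51, 0.00112). Ifit1bl1 (-3.66 ± 0.34, 2.94e-06) and Oas3 (-3.55 ± 0.55, 0.000331) were among the 12 genes with the most negative difference overall. Irf8, an interferon regulatory factor best known from immune cells, was the only member with a positive difference (0.25 ± 0.23, 0.54). The number of lower members was 13 without CD24lo replicate 1, 19 without CD24lo replicate 2 and 16 without either CD24hi array. Among 7 tested genes of MHC class II, of 9 listed, limma called 0 in either direction, with 2 lower at an unadjusted p under 0.05 (median -0.59).

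Promoter windows of RefSeq on the GRCm38.p6 build, 250 bases before to 50 after a gene start, were searched on both strands for GAAANNGAAA, the core of the interferon-stimulated response element, counting overlapping matches. Of the 17 lower interferon genes 13 had a window, and 6 of these (46.2%) held the motif. It was found in 9 of 20 tested members of the list with a window (45%), in 342 of 9624 tested genes (3.55%) and in 1079 of all 27025 genes with a window (3.99%). It stood in 60 of 794 genes lower in CD24hi cells (7.56%) and in 22 of 711 higher genes (3.09%). The 6 stretches are shown because they belong to members of the interferon list that were lower in CD24hi cells and hold the motif. Gbp2, Igtp and Oas1a are named for that reason, after their values were seen. They run on the strand of the gene, end before its start, and have the motif, or its reverse complement, in capitals.
Ifit1: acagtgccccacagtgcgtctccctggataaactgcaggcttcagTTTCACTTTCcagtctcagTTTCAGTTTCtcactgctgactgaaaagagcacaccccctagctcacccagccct
Ifit3: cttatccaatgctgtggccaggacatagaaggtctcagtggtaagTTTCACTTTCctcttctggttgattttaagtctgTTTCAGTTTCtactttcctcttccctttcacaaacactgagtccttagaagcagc
Rsad2: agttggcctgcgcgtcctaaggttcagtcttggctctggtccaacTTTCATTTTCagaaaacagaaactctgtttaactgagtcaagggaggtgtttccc
Gbp2: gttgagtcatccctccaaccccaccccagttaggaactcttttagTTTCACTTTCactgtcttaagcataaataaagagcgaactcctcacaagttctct
Igtp: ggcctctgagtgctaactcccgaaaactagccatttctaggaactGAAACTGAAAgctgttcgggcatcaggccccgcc
Oas1a: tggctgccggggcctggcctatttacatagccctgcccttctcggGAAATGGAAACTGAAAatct

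The stretch of Ifit1 lies at chr19:34640740-34640858 on the plus strand and that of Ifit3 at chr19:34583328-34583461 on the plus strand, each with 2 separate matches. Rsad2 lies at chr12:26456518-26456617 on the minus strand and Gbp2 at chr3:142620559-142620658 on the plus strand, with 1 match each. Igtp lies at chr11:58199477-58199555 on the plus strand with 1 match, and Oas1a at chr5:120907526-120907590 on the minus strand with 2 matches that overlap. Gbp2, a guanylate-binding protein, had signals of 424 and 264 in CD24lo and 85.2 and 56.3 in CD24hi cells (-2.04 ± 0.43, adjusted p = 0.0038). Igtp, an immunity-related GTPase, had 1782 and 1475 against 685 and 481 (-1.47 ± 0.28, 0.00176), and Oas1a 3001 and 2127 against 997 and 1085 (-1.27 ± 0.21, 0.000659). A match is a description of the sequence and not evidence of binding.

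Goblet cell genes mostly had similar signals in both fractions. All 20 listed were tested, 4 were lower in CD24hi cells and none higher, with a median of -0.14. Fer1l6, of the ferlin family of membrane proteins, had 10262 and 7613 in CD24lo and 949 and 1433 in CD24hi cells (-2.91 ± 0.23, adjusted p = 6.51e-07). Capn9, a calpain protease of the digestive tract, had 8243 and 6277 against 1955 and 2292 (-1.76 ± 0.20, 1.91e-05), and Bcas1 13890 and 9892 against 4899 and 4012 (-1.40 ± 0.20, 0.00017). Those 3 genes passed whichever 1 array was left out. The tryptase gene Tpsg1 was lower by a smaller margin (-0.96 ± 0.22, 0.00642) and was lost without CD24hi replicate 1 (0.0548). Spink4, a secreted protease inhibitor (0.28 ± 0.25, 0.531), and Ern2, the goblet cell paralogue of IRE1 (0.26 ± 0.33, 0.666), did not pass.

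The list of bone morphogenetic protein (BMP) signalling, a pathway active in the villus and held low at the crypt base, was divided by role. Of 15 listed 10 were tested, 2 were higher and 4 lower in CD24hi cells (median -0.47). Bambi, a decoy receptor that blunts the signal, had 281 and 529 in CD24lo and 6740 and 4871 in CD24hi cells (3.84 ± 0.30, adjusted p = 6.51e-07). The ligand gene Bmp7 had 156 and 324 against 1161 and 1309 (2.37 ± 0.55, 0.00725). Both CD24hi arrays were above both CD24lo arrays in each, and Bambi passed whichever 1 array was left out.

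All 4 Id genes, classical BMP targets that encode dominant-negative helix-loop-helix proteins, were lower in CD24hi cells. Id1 had 581 and 578 against 160 and 227 (-1.53 ± 0.31, 0.00314). Id2 was lower by 1.59 ± 0.37 (0.00713), Id3 by 1.33 ± 0.33 (0.0108) and Id4 by 1.22 ± 0.31 (0.0129) on the log2 scale. These calls were not robust to single arrays: Id1 was lost without CD24hi replicate 1 (0.0569), Id2 also without CD24lo replicate 1 (0.0789), Id3 without each array and Id4 without CD24lo replicate 1 (0.0638), CD24lo replicate 2 (0.0767) or CD24hi replicate 2 (0.113). Of the list, 1 gene was lower without CD24lo replicate 1 or CD24hi replicate 1 and 2 were lower without either of the others. Bmp7 was lost without CD24lo replicate 1 (0.111), leaving 1 higher gene.

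Genes of the regenerating epithelium and of the growth regulator YAP numbered 7 tested of 17, of which 3 were lower and none higher in CD24hi cells. The median of 0.03 had no stable sign, since it was -0.84 without probe sets of the x, s and a types and -0.31 to 0.17 with 1 array left out. Anxa3, an annexin, had 2008 and 2074 in CD24lo and 315 and 508 in CD24hi cells (-2.30 ± 0.28, adjusted p = 3.05e-05). S100a6, a calcium-binding protein, had 729 and 755 against 186 and 237 (-1.74 ± 0.28, 0.000482). The alarmin gene Il33 had 501 and 270 against 14.5 and 72.4 (-2.89 ± 0.61, 0.004). The first pair passed whichever 1 array was left out, whereas Il33 was lost without CD24lo replicate 1 (0.0679) or CD24hi replicate 1 (0.0866), leaving 2 genes.

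Targets of p53, the transcription factor that answers DNA breaks, had a median difference near that of all genes. Of 38 listed 35 were tested, 1 was higher and 3 lower, and the median was -0.00085. Over all genes tested 7.53% were higher and 8.23% lower, with a median of 0.04. Trp53inp1 did not pass (0.87, adjusted p = 0.088), but a second probe set of it gave 1.16 (0.0053 in a limma fit over probe sets). Cdkn1a, the cell cycle inhibitor p21 and a prime target, had signals of 15824 and 11270 in CD24lo and 10323 and 13085 in CD24hi cells (-0.20 ± 0.29, adjusted p = 0.713). The arrays overlapped, and in untreated mice the same gene had 4310 and 5700 in CD24lo and 2943 and 2522 in CD24hi cells. All 4 irradiated arrays thus lay above all 4 untreated ones.

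Gadd45a, a growth arrest gene, had 1624 and 1594 against 474 and 442 (-1.78 ± 0.35, 0.00212), which held whichever 1 array was left out. The kinase gene Plk3 (-1.04 ± 0.24, 0.00825) and the apoptosome gene Apaf1 (-0.89 ± 0.23, 0.0131) were lower, and the antiproliferative gene Btg2 was higher (0.48 ± 0.14, 0.0289). Second probe sets of Apaf1 (-0.18, adjusted p = 0.629) and Btg2 (0.30, 0.335) did not pass in a limma fit over probe sets. Plk3 and Apaf1 were lost without CD24lo replicate 1 (0.087 and 0.138) or CD24hi replicate 2 (0.058 and 0.109), and Btg2 with any of the arrays left out. Without CD24lo replicate 1, 1 member of the list was lower, and no member was higher in any fit that left out 1 array.

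Of 18 tested apoptosis genes, of 20 listed, 2 were higher and 6 lower in CD24hi cells (median -0.49). Bcl2l15, of the Bcl2 family, had 507 and 523 in CD24lo and 73.4 and 69.3 in CD24hi cells (-2.60 ± 0.50, adjusted p = 0.00198) and passed whichever 1 array was left out. Bak1, a pore-forming killer protein, had 817 and 712 against 341 and 357 (-1.09 ± 0.23, 0.00421), and was lost only without CD24lo replicate 1 (0.0562). Bcl2, which blocks such pores, went the other way with 306 and 337 against 943 and 1041 (1.58 ± 0.42, 0.0158). The replicates of Bcl2 were close, yet its adjusted p lay between 0.06 and 0.107 without each array in turn.

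The killer gene Bad (-0.76 ± 0.19, 0.0111) and the survival genes Bcl2l1 (-0.84 ± 0.26, 0.0367) and Birc3 (-0.77 ± 0.25, 0.0414) were lower, and the survival gene Birc2 was higher (0.66 ± 0.22, 0.0485). Both higher members thus block cell death, and the lower ones include genes of either kind. Other probe sets of Bcl2l1 gave -0.18 and -0.78 and did not pass (adjusted p = 0.72 and 0.0501 in a limma fit over probe sets). Lower members numbered 1 without CD24lo replicate 1, 2 without CD24hi replicate 1 and 4 without either of the others, and no member was higher in any fit that left out 1 array.

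Genes of mitosis and G2/M had negative differences in CD24hi cells after irradiation. Of 30 listed 29 were tested, all 29 had a negative difference, 8 were lower and the median was -0.63. Over all genes tested, 6358 of 11854 had a positive difference. Hmmr, a spindle protein, had signals of 509 and 411 in CD24lo and 145 and 240 in CD24hi cells (-1.22 ± 0.27, adjusted p = 0.00522), and Cenpe, a kinetochore motor, 369 and 354 against 110 and 223 (-1.12 ± 0.26, 0.00765). Cdca8 and Nusap1 were each lower by 0.88, with standard errors of 0.24 and 0.25. In these genes CD24hi replicate 1 was the lowest array. The other kept probe sets of Hmmr, Cenpe and Cdca8 had the same sign but did not pass. Their adjusted p ran from 0.0774 to 0.374 in a limma fit over probe sets. Mki67, the proliferation marker, had overlapping arrays at 1441 and 880 against 519 and 1139 (-0.54 ± 0.31, 0.276).

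The count of mitotic genes turned on single arrays. Limma called 0 of the 29 without CD24lo replicate 1 and 0 without CD24hi replicate 1, against 9 without CD24lo replicate 2 and 16 without CD24hi replicate 2, and 15 of the 29 were lower at an unadjusted p under 0.05 with all arrays. The median level of the list, as log2(signal + 16), was 9.71 and 9.26 on the CD24lo and 8.53 and 9.10 on the CD24hi arrays.

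DNA replication and S phase genes differed less. Of 35 listed 33 were tested, 1 was higher and none lower (median -0.20). The higher one was Ung, a uracil-DNA glycosylase, at 475 and 616 against 1480 and 1422 (1.40 ± 0.22, adjusted p = 0.000388), and it passed whichever 1 array was left out. Of 30 tested DNA repair genes of 34, 2 were higher and none lower (median 0.10), against 7.53% higher over all genes. These were the helicase gene Ercc2 (1.49 ± 0.36, 0.00929) and Xrcc5, the gene of Ku80 (1.10 ± 0.32, 0.0281), and neither passed without CD24lo replicate 1 (0.0648 and 0.338) or CD24hi replicate 1 (0.101 and 0.106), while Xrcc5 was also lost without CD24hi replicate 2 (0.129).

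The mitochondrial respiratory chain had small negative differences. Of 30 listed genes 29 were tested, 4 were lower in CD24hi cells and none higher, with a median of -0.40. Over all genes 8.23% were lower. Ndufs3, of complex I, had 6695 and 4612 against 3051 and 3620 (-0.74 ± 0.18, adjusted p = 0.0086). Sdhd (-0.64 ± 0.19, 0.027), Cox6c (-0.58 ± 0.19, 0.0464) and Cox5a (-0.48 ± 0.15, 0.0422) were the others, and the count was 0, 1, 1 and 3 without CD24lo replicate 1, CD24lo replicate 2, CD24hi replicate 1 and CD24hi replicate 2. Limma's count of 0 compares with 14 lower genes at an unadjusted p under 0.05 with all arrays. Among 16 genes common to the epithelium, Krt19 and Cdx2, an intestinal homeobox gene (-0.70 ± 0.20, 0.0234), were lower and none was higher (median -0.25). Neither passed without CD24lo replicate 1, and 1 of them passed without each of the other arrays.

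Genes of other cell types that a sort could carry along were read as a check. Of 13 tested T cell genes of 22, only Prf1, perforin, passed, with 2524 and 2250 in CD24lo against 1435 and 1350 in CD24hi cells (-0.77 ± 0.20, adjusted p = 0.0156), and it was lost without CD24lo replicate 1 (0.134). Cd3d and Cd4 did not pass the filter on low signals. Cd3e, Cd3g, Cd8a and Cd8b1 did pass it and were tested, but were not called. The list summed to 3349 and 3684 in CD24lo against 2309 and 2317 in CD24hi cells. Of 9 tested B and plasma cell genes of 13, Pou2af1 (1.99 ± 0.63, 0.0397) and Derl3 (1.84 ± 0.56, 0.0328) were higher and Ms4a1 (-1.81 ± 0.44, 0.00923) lower. Igkc was not among the tested genes, while Cd79a, Jchain, Mzb1, Ighm and Igha were tested and not called. All 3 calls were lost without CD24lo replicate 1, and the list summed to 7967 and 5318 against 5238 and 4470.

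Limma called 0 of 8 tested myeloid genes of 19, 0 of 5 stromal genes of 20 and 0 of 3 red blood cell genes of 9. At an unadjusted p under 0.05 these lists had 1 higher and 2 lower, 1 higher and 1 lower, and 0 genes. For the stromal genes Lyve1 (-1.65, adjusted p = 0.0139) and Sparc (1.38, 0.0155) a second, dimmer probe set did pass in a limma fit over probe sets. Csf1r, C1qa, Col1a1, Col3a1 and Hba-a1 did not pass the filter, while Itgam, Fcer1g, Tyrobp, Pecam1, Vim and Hba-a2 did. The summed signals were 7045 and 8711 against 9887 and 8887 for the myeloid list, 1670 and 2843 against 1863 and 2287 for the stromal list, and 2866 and 2429 against 2451 and 2159 for the red blood cell list. The part of such cells in the differences of the epithelial lists was not tested.

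The largest differences over all genes lay partly outside the lists. Samd5 had signals of 6.84 and 250 in CD24lo and 3117 and 2836 in CD24hi cells, a difference of 5.26 ± 0.77 (adjusted p = 0.000194), the highest of all. Smim38 had 34.5 and 298 against 4362 and 4124 (5.08 ± 0.50, 5.42e-06), and Klf15, a Krüppel-like transcription factor of metabolic genes, 6.03 and 28.2 against 730 and 1372 (5.03 ± 0.41, 7.77e-07). In all of them CD24lo replicate 1 was the lowest array.

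Slc16a7, a monocarboxylate transporter, had 39.5 and 130 against 2313 and 1690 (4.47 ± 0.34, 5.69e-07). Pnliprp1, a lipase-related protein of the exocrine pancreas, had 70.5 and 80.4 against 1754 and 1612 (4.22 ± 0.29, 2.04e-07). Fzd9, a Wnt receptor, had 50.4 and 132 against 2310 and 1377 (4.18 ± 0.39, 3.1e-06). The genes of the syntrophin Sntb1 (4.61 ± 0.43), the adhesion molecule Cadm3 (4.36 ± 0.62), the laminin chain Lamb1 (4.28 ± 0.48) and the iron-reducing cytochrome Cybrd1 (4.09 ± 0.34) followed. Every one of these passed whichever 1 array was left out.

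At the other end, Frmd3, a FERM domain protein, had 438 and 372 in CD24lo and 3.78 and 10.6 in CD24hi cells (-4.19 ± 0.43, adjusted p = 9.77e-06). Fam3b, a secreted cytokine-like protein, had 2950 and 2137 against 127 and 232 (-3.75 ± 0.33, 1.69e-06), and Rgs2, a regulator of G protein signalling, 6885 and 5151 against 324 and 584 (-3.72 ± 0.38, 9.61e-06). Tmem236 (-3.71 ± 0.53), Chp2 (-3.67 ± 0.68), AA467197 (-3.63 ± 0.33) and Sptssb, a small subunit of serine palmitoyltransferase (-3.42 ± 0.36), completed the 12 most negative genes with Ido1, Nts, Gsta4, Ifit1bl1 and Oas3. All of them passed whichever 1 array was left out.

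To see whether the gap between the fractions after irradiation was that of untreated mice, the fraction difference itself was compared between the conditions. With the same irradiated arrays in both, 1 gene of 11854 (0.00844%) passed, and 428 had an unadjusted p under 0.05. The gene was Clca1, a secreted metalloprotease of goblet cell mucus. In untreated mice it had signals of 16748 and 20050 in CD24lo and 3968 and 3764 in CD24hi cells, a difference of -2.24. After irradiation the signals were 18472 and 15600 in CD24lo and 10198 and 13754 in CD24hi cells, a difference of -0.52 ± 0.18. A dimmer probe set of Clca1 gave -3.13 between the irradiated fractions (adjusted p = 6.98e-07), so the size of the difference depends on the probe set. The CD24hi arrays after irradiation lay between the CD24hi arrays of untreated mice and the CD24lo arrays of either condition.

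The change of 1.72 ± 0.25 in the Clca1 difference had an adjusted p of 0.0393. It was 0.164 with a replicate block by condition and number, 0.0708 with a block by number and 0.144 with the probe sets of the gene averaged, where the change was 1.42. It was 0.151 with no filter, 0.177 without the trend and 0.38 with only the arrays compared. With 1 untreated or irradiated array left out, the change in Clca1 ran from 1.51 to 1.94. Its call was lost in each of these fits except the one without irradiated CD24hi replicate 1. A p that misses the threshold does not show that the gap was the same in other genes. Lgr5, for example, had a fraction difference of 2.54 in untreated mice and 4.42 after irradiation, a change of 1.88 ± 0.80 that did not pass. The list medians were 1.38 in untreated mice and 1.04 after irradiation for stem cell genes, 1.12 and 1.07 for Paneth cell genes, -1.86 and -2.19 for enterocyte genes, and -1.09 and -1.47 for interferon genes.

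The same question was put against doxorubicin, the other DNA-damaging treatment. Here 118 of 11854 genes (0.995%) had a different gap between the fractions, with 10 (0.0844%) more positive after irradiation and 108 (0.911%) more negative. Cell cycle genes made up a large share of the negative ones. Of the 29 tested genes of mitosis and G2/M, 15 were more negative after irradiation, as were 10 of 33 of S phase and 5 of 30 of DNA repair. All 29 and all 33 of the first 2 lists had a negative value, with medians of -1.67 and -1.47 against -0.06 over all genes tested. Of all genes tested, 6590 of 11854 had a negative value.

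Stil, a protein of centriole duplication, had signals of 238 and 209 in CD24lo and 68.4 and 88.1 in CD24hi cells after irradiation, and of 144 and 149 against 485 and 431 after doxorubicin. The fractions were thus in opposite order under the treatments, and the gap differed by -2.89 ± 0.34 (adjusted p = 0.00249). Esco2, which acetylates cohesin, had 287 and 228 against 110 and 148 after irradiation and 133 and 148 against 560 and 634 after doxorubicin (-2.89 ± 0.38, 0.00341). Kif11, a mitotic kinesin, had 768 and 615 against 352 and 444, and then 739 and 729 against 1941 and 1726 (-2.07 ± 0.31, 0.00616). Its CD24lo signals were close under both treatments, and its CD24hi signals were not.

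Hmmr showed the same layout, with 501 and 471 in CD24lo and 1147 and 1416 in CD24hi cells after doxorubicin (-2.58 ± 0.38, 0.00599). Top2a, topoisomerase II itself and the target of doxorubicin, had overlapping arrays after irradiation at 1097 and 767 against 514 and 921, and 938 and 932 against 2442 and 2848 after doxorubicin (-1.89 ± 0.38, 0.0287). Mcm6, a subunit of the replicative helicase, had 930 and 924 against 500 and 888 and then 851 and 890 against 2257 and 2437 (-1.88 ± 0.35, 0.0178). Cep128 was among the negative genes (-2.79 ± 0.57, 0.0273), but another of its probe sets gave a difference of the opposite sign between irradiated fractions.

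On the level of the whole mitotic list, the median log2(signal + 16) after doxorubicin was 9.55 and 9.63 in CD24lo and 10.70 and 10.54 in CD24hi cells, and in untreated mice 10.68 and 10.67 against 10.48 and 10.33. For S phase the medians were 8.97 and 9.18 against 8.85 and 9.22 after irradiation, 8.70 and 8.43 against 10.09 and 10.09 after doxorubicin, and 9.85 and 10.18 against 10.53 and 10.41 in untreated mice. Irradiated cells of both fractions and CD24lo cells after doxorubicin had medians below those of untreated cells, while CD24hi cells after doxorubicin did not for mitosis. These levels are a description, with 2 arrays each.

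**Figure D4:**
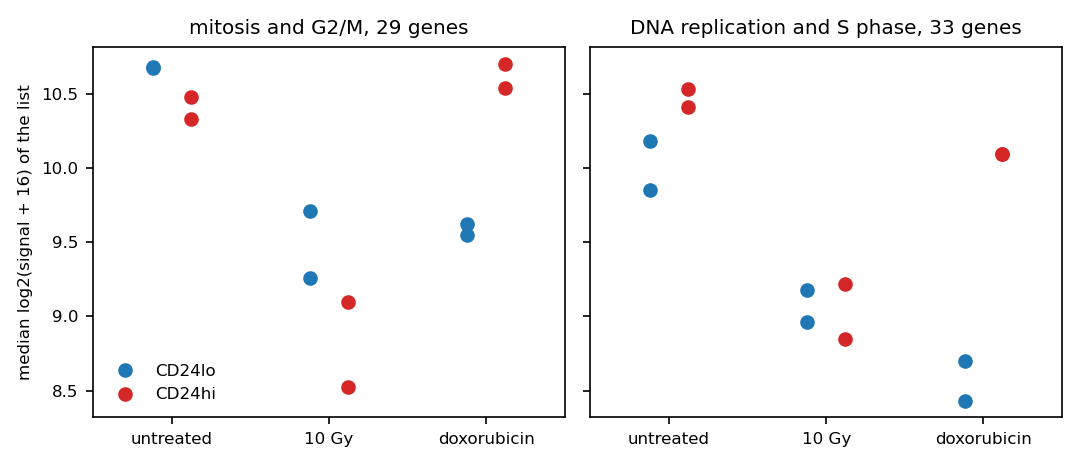
Median log2(signal + 16) of the 29 tested genes of mitosis and G2/M and of the 33 of S phase on each array of the untreated, 10 Gy and doxorubicin groups, with 1 point per array and colour for the fraction. CD24hi arrays lie above CD24lo arrays after doxorubicin in both lists, and after irradiation CD24hi arrays lie below for mitosis and overlap for S phase.

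Of the stem cell list 3 of 18 genes and of the Paneth cell list 1 of 17 were more negative after irradiation than after doxorubicin. Olfm4 had 1275 and 980 in CD24lo and 11337 and 12443 in CD24hi cells after doxorubicin, a gap of 3.39 against 1.48 after irradiation (-1.91 ± 0.43, adjusted p = 0.045). Mmp7 had 2130 and 2206 against 19221 and 16808 after doxorubicin, and its CD24lo signals after irradiation were the higher ones (-1.98 ± 0.36, 0.0172). Aqp4 had a gap of 1.55 after doxorubicin and of -0.57 after irradiation (-2.11 ± 0.38, 0.0165), and Slc12a2, an ion cotransporter gene, was the remaining stem cell gene that passed (-1.11 ± 0.25, 0.046). The stem cell count was 0 without irradiated CD24hi replicate 1 or any of the 4 doxorubicin arrays, 1 without either irradiated CD24lo array and 0 with the probe sets of a gene averaged. Mmp7 was kept only without irradiated CD24lo replicate 2 (0.0393) or irradiated CD24hi replicate 2 (0.0221). Cd14, a lipopolysaccharide co-receptor in the myeloid list, had 118 and 141 against 51.8 and 81.5 after irradiation and 10.9 and 9.31 against 92.1 and 108 after doxorubicin (-2.98 ± 0.47, 0.00765). The p53 target Gtse1, a G2 and S phase protein, was more negative as well (-1.78 ± 0.41, 0.0471).

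The positive genes were led by pancreatic enzymes. Cpb1 had 502 and 134 in CD24lo and 32.6 and 44.7 in CD24hi cells after doxorubicin, the opposite order to that after irradiation, and its gap differed by 6.56 ± 0.90 (adjusted p = 0.00341). Cel (4.97 ± 0.93, 0.0178), Cela2a (4.88 ± 0.93, 0.0192), Ctrb1 (4.38 ± 0.95, 0.0355) and Cpa1 (4.23 ± 0.90, 0.0344), which were 4 of the 15 tested genes of the pancreatic and gastric list but 1 with a pseudocount of 1 and 0 with a stricter filter, and 2210010C04Rik (6.20 ± 1.06, 0.0136) behaved likewise. All 6 had a higher signal on doxorubicin CD24lo replicate 1 than on any untreated array. All but Ctrb1 passed the filter on low signals only through irradiated CD24hi and doxorubicin CD24lo arrays. High signals in those groups make this gap positive, so these values are a description and not support for a difference. Prxl2a (1.39 ± 0.29, 0.0344) and Acot6, an acyl-CoA thioesterase gene (1.33 ± 0.29, 0.0382), were positive without being pancreatic enzymes, and another probe set of Prxl2a had the opposite sign between irradiated fractions.

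**Figure D5:**
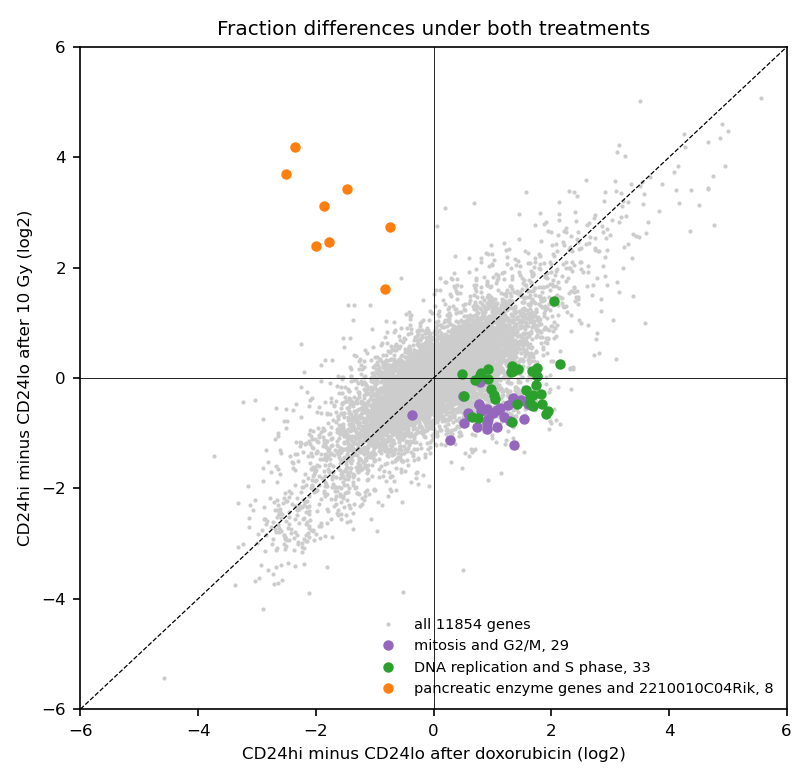
Difference between CD24hi and CD24lo cells on the log2 scale after doxorubicin (horizontal) and after 10 Gy (vertical) for 11854 genes in grey, with the genes of mitosis, those of S phase and 7 pancreatic enzyme genes with 2210010C04Rik in colour, and a dashed line where both are equal. Mitotic and S phase genes lie below the line, nearly all of them to the right of zero, and the pancreatic genes lie above it.

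The comparison with doxorubicin depended on single arrays far more than the fraction difference itself. The 118 genes became 7 without irradiated CD24hi replicate 1, 191 without irradiated CD24hi replicate 2, 21 and 77 without irradiated CD24lo replicates 1 and 2, and 21, 24, 7 and 9 without doxorubicin CD24lo replicate 1, CD24lo replicate 2, CD24hi replicate 1 and CD24hi replicate 2. Mitotic genes numbered 0 without irradiated CD24hi replicate 1, when limma had 723 genes at an unadjusted p under 0.05, and 24 without irradiated CD24hi replicate 2. They numbered 3 without irradiated CD24lo replicate 1 or either doxorubicin CD24lo array, and 1 without either doxorubicin CD24hi array. The counts of S phase and DNA repair genes likewise fell without irradiated CD24hi replicate 1 and rose without irradiated CD24hi replicate 2. Pancreatic and gastric genes numbered 0 without irradiated CD24lo replicate 1, irradiated CD24hi replicate 1 or either doxorubicin CD24hi array, and 1 without irradiated CD24lo replicate 2 or doxorubicin CD24lo replicate 1. Among the genes named for this comparison, Cpb1, Stil and Esco2 passed whichever 1 array was left out. Of these, Cpb1 was tested only through arrays where it is high.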

How the data were processed

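RNA of sorted cells and 1 whole intestine was measured on 21 arrays. The deposited values are linear signal intensities of 45101 probe sets, which the authors computed with MAS5, per the submitters' processing notes (version not given in the sources used here). There are no detection calls, so weak signals are not parted from background and the fold of a dim gene is limited. Precision is limited by the number of arrays.

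The scale of analysis was log2(signal + 16). In the platform annotation 34958 probe sets had 1 gene symbol, 932 had several and 9211 had none, and those with 1 symbol were analysed. Probe sets above the median of their array on at least 2 of the 20 sorted arrays were kept (22531), and each gene was read from its brightest kept probe set by mean, which gave 11854 genes. Of these, 3045 were read through probe sets of the x, s or a type, which can match related transcripts. The files give no coordinates of probe sets.

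One mean per group of 2 arrays was fitted to all 20 sorted arrays with limma 3.58.1 in R 4.3.3 (10 residual degrees of freedom, variances moderated with a trend on the mean). The 3 comparisons were two-sided and adjusted by Benjamini and Hochberg over all genes at 0.05. Adjusted p-values in the text are limma's. The same replicate numbers in different groups were not treated as pairs, since the residuals of same-numbered arrays correlated at -0.149 to 0.385 over the 5 conditions. With 1 array left out, its partner was taken to vary as arrays of the other groups do. Other settings were pseudocounts of 1 and 64, quantile normalization, arrays centred on their 75th percentile, a stricter filter or none, probe sets averaged per gene, leaving out x, s and a probe sets, moderation without trend or robust, replicate blocks, and a fit to the arrays compared. The procedure was tested on simulated data.

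The comparison, the 32 lists (651 entries, 530 tested) and the rule for named genes were chosen with earlier results of these data known. The rule names 12 core genes, up to 6 members past the threshold and 2 of opposite sign per list, the 12 highest and 12 lowest genes, and for the other comparisons 8 genes in each direction and list members past the threshold. Promoter windows are those of RefSeq on GRCm38.p6.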

Additional observations from a re-analysis of the deposited data

Results flagged for a closer look

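A change in the gap between CD24hi and CD24lo cells from 1 condition to another, tested by limma as a difference of differences, drew attention to 50 values. All are on the log2 scale with adjusted p-values over all genes. Against untreated mice, the gap of Clca1 was 1.72 more positive after irradiation (adjusted p = 0.0393, lost with either replicate block), with CD24hi signals of 3968 and 3764 in untreated mice and 10198 and 13754 after irradiation.

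Against doxorubicin, the gap was more positive after irradiation for Cpb1 (6.56), 2210010C04Rik (6.20), Cel (4.97), Cela2a (4.88), Ctrb1 (4.38), Cpa1 (4.23), Prxl2a (1.39) and Acot6 (1.33), with adjusted p-values from 0.00341 to 0.0382. The first 6 had their highest signals outside irradiated CD24hi cells on doxorubicin CD24lo replicate 1. All of them but Ctrb1 were tested only through irradiated CD24hi and doxorubicin CD24lo arrays, where they are high.

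Among genes of mitosis and chromosome segregation, the gap was more negative for Stil (-2.89), Esco2 (-2.89), Nsl1 (-2.83), Cenpn (-2.81), Cep128 (-2.79), Hmmr (-2.58), Ttk (-2.28), Bub1b (-2.14), Bub1 (-2.08) and Kif11 (-2.07). It was also more negative for Cdca8 (-1.95), Top2a (-1.89), Aurkb (-1.89), Cdc20 (-1.72), Cenpf (-1.71), Cdca3 (-1.67), Nusap1 (-1.63), Cenpa (-1.48), Aurka (-1.26) and Cks2 (-1.24). Genes of replication, nucleotide supply and repair followed with Rad51ap1 (-2.77), Cdc6 (-2.56), Pole (-2.54), Mcm5 (-2.31), Rrm2 (-2.20), Prim1 (-2.12), Mcm3 (-2.09), Gins1 (-1.97), Mcm6 (-1.88), Brca2 (-1.83), Brca1 (-1.81), Rrm1 (-1.79), Mcm4 (-1.72), Chek2 (-1.48) and Atr (-1.32). The remaining values were those of Cd14 (-2.98), Aqp4 (-2.11), Mmp7 (-1.98), Olfm4 (-1.91), Gtse1 (-1.78) and Slc12a2 (-1.11). For Nsl1 a second probe set had the opposite sign between the irradiated fractions (1.39 against -0.75), and another kept probe set also went the other way there for Aqp4, Atr, Aurkb, Cep128, Mcm3, Mcm4, Rad51ap1, Top2a and the positive Prxl2a. Adjusted p-values of these negative genes ran from 0.00249 to 0.0486.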

How the results depend on the processing

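The number of genes differing between the fractions after irradiation was 1605 to 2121 under the other scalings, filters, probe set rules and moderations, and 768 to 1338 with 1 irradiated array left out. Of 138 named genes that passed, 111 did so under all of these processing alternatives in which they were tested. A gene absent from an alternative was not counted as lost there. Fewer genes kept the call in every fit that left out 1 array, and none reversed. For the gap against untreated mice, 1 gene became 2 with a pseudocount of 64, 0 with no filter (669 genes at an unadjusted p under 0.05), 0 with probe sets averaged per gene (542), 0 with only the arrays compared (421), and 0 to 2 with 1 array left out. For the gap against doxorubicin, 118 genes became 74 with no filter, 74 without the trend, 260 with only the arrays compared, and 7 to 191 with 1 array left out. Of 49 named genes 19 passed under all processing alternatives in which they were tested, and far fewer in every fit that left out 1 array.

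Same-numbered arrays had residuals correlated at 0.344 in untreated, 0.385 in Lgr5-ablated and 0.0677 in irradiated cells but at -0.149 and -0.0975 in NICD and doxorubicin cells, so the numbers did not pair the arrays in every condition. A replicate block by condition and number gave 1986 genes and a block by number 1834 for the fractions after irradiation, 101 and 92 against doxorubicin, and 0 with either block against untreated mice (535 and 412 at an unadjusted p under 0.05 in limma).

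With 2 arrays a group and no detection calls, small differences and dim genes are the least certain. With the genes named for the other comparisons included, 148 named genes were called between the irradiated fractions. Of these, 66 had other kept probe sets. For 37 of the 66 all other sets passed with the same sign, and for 2 another set had the opposite sign. Leaving out probe sets of the x, s and a types moved the count of lower genes from 8 to 5 for mitosis, from 6 to 3 for apoptosis and from 4 to 2 for BMP signalling, and for the gap against doxorubicin from 15 to 7 for mitosis. For that gap the S phase count was 18 with only the arrays compared and the DNA repair count 2 with a block by condition and number. The mitotic call after irradiation rests on CD24lo replicate 1 and CD24hi replicate 1, and the pancreatic count mainly on CD24hi replicate 1. Against doxorubicin, the mitotic count fell to 3 or fewer without either of these or any of the doxorubicin arrays, and the pancreatic count to 0 without either of these or either doxorubicin CD24hi array. The cause was not tested.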
